A study of Mus musculus with 9 samples.

Results

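The fracture site of mice given carprofen at the start of their active time was compared with that of mice given the same drug at their resting time. Carprofen is a non-steroidal anti-inflammatory drug (NSAID) that inhibits the cyclooxygenase enzymes, which make prostaglandins from arachidonic acid. The comparison took the 3 arrays titled active and the 3 arrays titled resting, 6 of the 9 arrays of the study, and covered 22354 gene symbols in 24367 rows, which is every gene-named row of the study. A gene with more than 1 row is represented by its brightest, judged by the mean of all 9 arrays.

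All mice were female C57BL/6J mice, with an age of 2 months in the labels, and no mouse carried a transgene. The active group had a tibia fracture and 20 mg/kg carprofen daily for 3 days at ZT13, where ZT counts the hours from lights on. The resting group had the same fracture and the same doses at ZT2. The control group had neither fracture nor drug, although its titles carry the word hematoma, and no group had a fracture without drug. Tissue was taken at ZT6 in every group, 78 hours after surgery in the fractured mice, and the methods place the last dose longer before harvest in the resting group than in the active group. Dosing time and time since the last dose therefore cannot be told apart. The study's text speaks both of individual mice and of RNA pools, so the spread between arrays may not be only that between mice.

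On day 3 after a fracture the site holds a blood clot, inflammatory cells and the first cells of the repair tissue. The cut marrow cavity adds red cell precursors, developing neutrophils, B cells and plasma cells, and injured muscle beside the bone adds contractile fibres and regenerating myoblasts. Nearly all cells carry a circadian clock, in which ARNTL and CLOCK drive the Per, Cry and Nr1d genes, whose proteins in turn shut their own transcription down. In a bulk sample of this kind, fewer cells of a type and less RNA per cell cannot be told apart.

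The values are log2 signals of 1 array each, so a difference of 1 is a 2-fold difference. Array medians lay between 6.34 and 6.40. Markers of the labelled tissue were present in the 6 arrays, with Col1a1 at 11.77 to 12.73 and Ibsp at 11.45 to 12.56, while the row named Bglap, an osteoblast gene, lay at 5.65 to 6.22. Xist and Ddx3y matched the female label in all 9 arrays. Active replicate 1 resembled the resting arrays no less than the other active arrays: its correlation over all rows was 0.987 to 0.989 with the resting arrays, and 0.980 and 0.987 with active replicates 2 and 3. It was not alone in this. Active replicate 3 had 0.989 with resting replicate 1, against 0.987 and 0.986 with active replicates 1 and 2. Resting replicate 1 had 0.983 and 0.986 with resting replicates 2 and 3. By these correlations the arrays did not separate into their 2 groups.

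After Benjamini-Hochberg adjustment of limma's p-values, 0 of the 24367 rows (0%) were under 0.05, and the words higher and lower below describe measured differences only. Before adjustment 1489 rows (6.11%) were under 0.05, of which 756 (3.1%) had higher and 733 (3.01%) lower values in the active arrays. With a difference of at least 1.5-fold as well, 89 rows (0.365%) were higher and 148 (0.607%) lower. All 3 active arrays lay above all 3 resting arrays in 1258 rows (5.16%) and below them in 1163 rows (4.77%), and these shares are the background for every count of non-overlapping genes below. Differences were positive in 48.5% of all rows and negative in 51.5%, and the median difference over all genes was -0.004. With 3 arrays in each group, the smallest two-sided p of an exact permutation test is 0.1. When active replicate 1 was left out, 35 rows reached an adjusted p under 0.05 in limma, 2 of them higher (Inmt and Lrtm1) and 33 lower, among them Slc4a1, Ctse, Car2, Ighm, Alas2, Igj, Elane and Nkg7. Without resting replicate 2, only the row of Igkv9-120 passed.

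Immunoglobulin genes had the largest lower values of the table in the active arrays. Plasma cells and B cells make antibodies from a heavy and a light chain, and the J chain, encoded by Igj, links them into the pentamers of IgM. Igj had log2 signals of 6.52, 4.93 and 5.82 in the active arrays, against 7.70, 7.32 and 7.69 in the resting arrays. The groups did not overlap, and the difference was -1.81 (SE 0.31, adjusted p = 0.28 from limma), or 3.51-fold lower. Ighm, the heavy chain of IgM, had 11.28, 10.68 and 10.68 in the active arrays, against 12.27, 12.14 and 12.38 in the resting arrays. The difference of -1.38 with an SE of 0.16 carried the smallest adjusted p of the table, 0.10 from limma. Other rows of Ighm did not all run this way, with differences from -1.93 to 0.50.

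Of the 13 genes whose symbol starts with Igk, the kappa light chain locus, 11 were lower in the active group and 6 did not overlap, all 6 of them lower. Of 11 heavy chain genes, 10 were lower and 8 did not overlap, all 8 of them lower. These groups were drawn after the values were seen, and their members share sequence, so that 1 transcript can light up several rows. Ighg3 and Ighg, heavy chains of IgG, had differences of -1.20 and -0.81. The kappa rows Igkv9-120, Igkv4-70, Igkv1-133, Igk-V28, Igkv5-43 and Igk had differences between -1.81 and -1.01, and the heavy chain variable row Igh-VJ558 had -1.44. Dimmer rows of Igkv5-43 ran the other way, at 0.51 and 0.29. For Igkv9-120 the active arrays lay at 3.58, 3.40 and 3.22, against 6.10, 3.86 and 5.67 in the resting arrays. These active values were dim, below the lower quartiles of the active arrays (5.02 to 5.09). Resting replicate 2 lay near the active arrays for this row, unlike the other resting arrays.

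The list of plasma cell and immunoglobulin genes had 12 members, of which 11 were lower in the active group, 6 without overlap and 0 above without overlap. Its median difference was -0.32, against -0.004 over all genes. Xbp1, the transcription factor that plasma cells need for antibody secretion, had 9.59, 9.34 and 9.36 in the active arrays, against 9.88, 9.86 and 9.83 in the resting arrays, a difference of -0.43. All resting values were above all active values, by a smaller step than for the antibody genes. Genes of B cells before the plasma cell stage had a median nearer 0. Of 22 B lineage genes, 14 were lower and 8 higher, 2 did not overlap with the active arrays lower and 1 with them higher, and the median was -0.07.

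**Figure D1:**
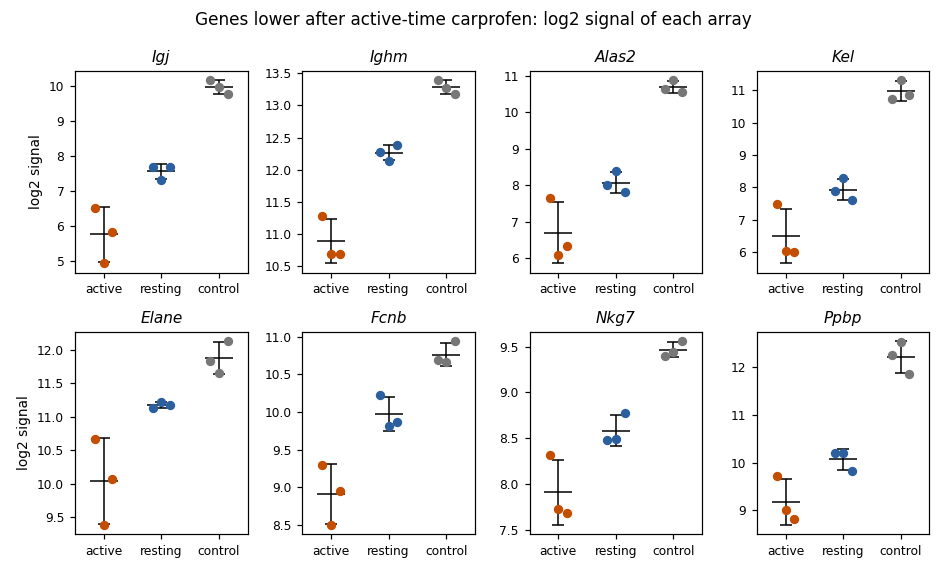
Log2 signal of 8 genes with lower values in the active group, with 1 point per array and the mean ± SD of 3 arrays per group. The active arrays lie below the resting arrays in every panel, the control arrays lie highest, and the active array plotted first, replicate 1, is the highest of its group in every panel.

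Red cell genes had lower values in the active arrays across globins, membrane proteins, transcription factors and heme enzymes. Of 31 erythroid globin and membrane genes, 29 were lower, 18 without overlap and 1 above without overlap, and 19 passed an unadjusted p under 0.05 with at least 1.5-fold, all lower. The median was -0.73. Alas2, the erythroid enzyme of the first step of heme synthesis, had 7.66, 6.10 and 6.34 in the active arrays, against 8.004, 8.39 and 7.82 in the resting arrays. Its groups did not overlap, but active replicate 1 came close to the lowest resting array, and the difference was -1.37 (SE 0.33, adjusted p = 0.53 from limma). Kel, a blood group membrane protein, had 7.48, 6.04 and 5.996 in the active arrays, against 7.88, 8.28 and 7.63 in the resting arrays, a difference of -1.43 (SE 0.35, adjusted p = 0.53 from limma).

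Slc4a1, encoding the anion exchanger of the red cell membrane, had a difference of -1.45, but its groups overlapped because of 1 array. Its log2 signals were 9.72, 7.66 and 7.60 in the active arrays, against 9.88, 9.99 and 9.46 in the resting arrays. Active replicate 1 thus lay inside the resting range, and without it the difference was -2.14 (adjusted p = 0.00419 from limma). That fit is given because this array overlapped, so its p is no support for the difference. With all arrays the adjusted p of Slc4a1, like that of every row, was not under 0.05. Leaving out each array in turn gave differences from -2.14 to -1.09. The alpha globin genes Hba-a2 and Hba-a1 had -0.83 and -0.73, both without overlap. Active replicate 1 had the highest signal of the active arrays for 27 of the 31 erythroid genes.

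Of 12 heme synthesis genes, 10 were lower and 7 did not overlap, all 7 of them lower, with a median of -0.35. Slc25a37, which brings iron into the mitochondria of red cell precursors, had -0.83 without overlap. Ppox, Cpox, Fech and Urod, later enzymes of the pathway, had -0.48, -0.42, -0.39 and -0.23. Uros, another enzyme, and Abcb6, a transporter, had 0.05 and 0.00, both with overlapping groups. Car2, a carbonic anhydrase of red cells and of osteoclasts, had -1.40 with overlapping groups.

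Erythroid genes are known targets of the transcription factor GATA1. The promoters of Alas2 and Kel are shown because both genes stand among the 20 largest lower differences and both hold the letters AGATAA, searched on both strands, in the 250 bases before their start. Sequences are from RefSeq, build GRCm38.p6, read in the direction of the gene, with the match in capitals. The Alas2 window lies at chrX:150547167-150547416 on the plus strand and the Kel window at chr6:41704326-41704575 on the minus strand.
Alas2: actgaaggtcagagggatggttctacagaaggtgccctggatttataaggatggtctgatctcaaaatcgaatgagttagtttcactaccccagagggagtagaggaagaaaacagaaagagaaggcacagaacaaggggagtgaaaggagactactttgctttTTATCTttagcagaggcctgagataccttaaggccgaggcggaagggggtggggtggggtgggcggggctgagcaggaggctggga
Kel: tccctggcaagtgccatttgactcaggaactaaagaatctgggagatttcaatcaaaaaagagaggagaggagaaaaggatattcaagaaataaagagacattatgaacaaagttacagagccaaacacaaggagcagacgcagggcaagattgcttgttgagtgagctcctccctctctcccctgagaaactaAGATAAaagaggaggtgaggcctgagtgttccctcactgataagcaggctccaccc
Of the 43 erythroid and heme genes, 31 had a promoter window, and 9 of these held the letters, against 3090 of 27025 genes with a window (11.4%). A match describes the letters and not a bound factor.

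Neutrophil genes were lower in the active arrays, with the larger differences in the genes of the earliest granules. Neutrophils load their primary granules at the promyelocyte stage in the marrow and switch these genes off as they mature. All 8 primary granule genes were lower and all 8 did not overlap, with a median of -0.94. Elane, encoding neutrophil elastase, had 10.67, 9.39 and 10.08 in the active arrays, against 11.13, 11.22 and 11.18 in the resting arrays, which is -1.13 apart (SE 0.26, adjusted p = 0.50 from limma). The resting arrays lay close together, while the active arrays spread over more than 1 log2 unit. Fcnb, encoding ficolin B, had 9.30, 8.51 and 8.95 in the active arrays, against 10.23, 9.82 and 9.86 in the resting arrays, a difference of -1.05 (SE 0.19, adjusted p = 0.32 from limma). Mpo (myeloperoxidase), Prtn3 (proteinase 3), Ms4a3 and Ctsg (cathepsin G) had -0.98, -0.97, -0.90 and -0.60. Active replicate 1 was the active array closest to the resting arrays for all 8 genes, and without active replicate 2 the median of the list was -0.63.

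The genes of later granules and of mature neutrophils had smaller differences. Of 30, 28 were lower, 11 did not overlap, all 11 of them lower, and the median was -0.44, or -0.26 without active replicate 2 and -0.28 without resting replicate 1. Ltf (lactoferrin) had 11.05, 10.46 and 10.87 in the active arrays, against 11.72, 11.40 and 11.44 in the resting arrays, a difference of -0.73. Retnlg, a resistin-like gene of neutrophils, had -0.68, Camp (cathelicidin) -0.53 and S100a8, a calcium-binding protein that abounds in mature neutrophils, -0.38. The difference between both neutrophil lists was not tested.

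Platelet, lymphocyte and antigen presentation genes were lower by smaller amounts. Of 20 platelet and megakaryocyte genes, 19 were lower and 7 did not overlap, all 7 of them lower, with a median of -0.31. Ppbp, a platelet chemokine, had 9.73, 8.997 and 8.82 in the active arrays, against 10.21, 10.19 and 9.82 in the resting arrays, a difference of -0.89. The integrin Itga2b had -0.58 and the platelet receptor subunit Gp1ba -0.39. Pf4, another platelet chemokine, had a difference of 0.00, and P2ry12, a platelet ADP receptor that other cells also make, had 0.39 with overlapping groups. Of 25 T and NK cell genes, 18 were lower and 6 did not overlap, all 6 of them lower, with a median of -0.17 that was -0.06 without active replicate 2. Nkg7, a granule protein of cytotoxic lymphocytes that myeloid precursors also make, had 8.32, 7.73 and 7.68 in the active arrays, against 8.48, 8.49 and 8.78 in the resting arrays.

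Of 17 MHC and antigen presentation genes, 15 were lower, 5 did not overlap with the active arrays lower and 1 with them higher, and the median was -0.22, or -0.14 without active replicate 2. All 9 members that belong to class II or its peptide loading were lower, 5 of them without overlap, with differences between -0.49 and -0.05. H2-Ab1, a class II beta chain, had 10.47, 10.53 and 10.71 in the active arrays, against 10.998, 11.22 and 10.96 in the resting arrays. Ciita, the master activator of class II genes, had -0.43, Cd74, the invariant chain, -0.42, and H2-Eb1 -0.35. Among class I genes, B2m had -0.02 and H2-K1 -0.33. Erap1, which trims peptides for class I, was the member with the active arrays higher (0.30). Of 20 mast cell, basophil and eosinophil genes, 13 were lower, 2 without overlap, with a median of -0.12. Hdc, the histamine-forming enzyme of basophils and neutrophil precursors, had -0.61 and Tpsb2, a mast cell tryptase, 0.43.

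Genes of dividing cells were also lower. Of 24 mitosis genes, 21 were lower and 5 did not overlap, all lower, with a median of -0.18 that was -0.105 without active replicate 2 and -0.11 without resting replicate 3. Of 26 DNA replication genes, 24 were lower and 7 did not overlap, all lower, with a median of -0.21 that was -0.089 without active replicate 2. Mki67, a protein of dividing nuclei, had 9.93, 9.21 and 9.53 in the active arrays, against 10.23, 10.14 and 10.13 in the resting arrays. E2f2, a cell cycle transcription factor that red cell precursors need, had -0.68, and the replication factors Cdc45 and Cdc6 each had -0.46. Of 54 clustered histone genes, 34 were lower, 6 did not overlap with the active arrays lower and 1 with them higher, and the median was -0.15. Hist1h2af and Hist1h1a had -0.69 and -0.66. These lists moved in the same direction as the red cell and neutrophil precursor lists in the same arrays, and how much of their difference came from those cells was not tested.

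**Figure D2:**
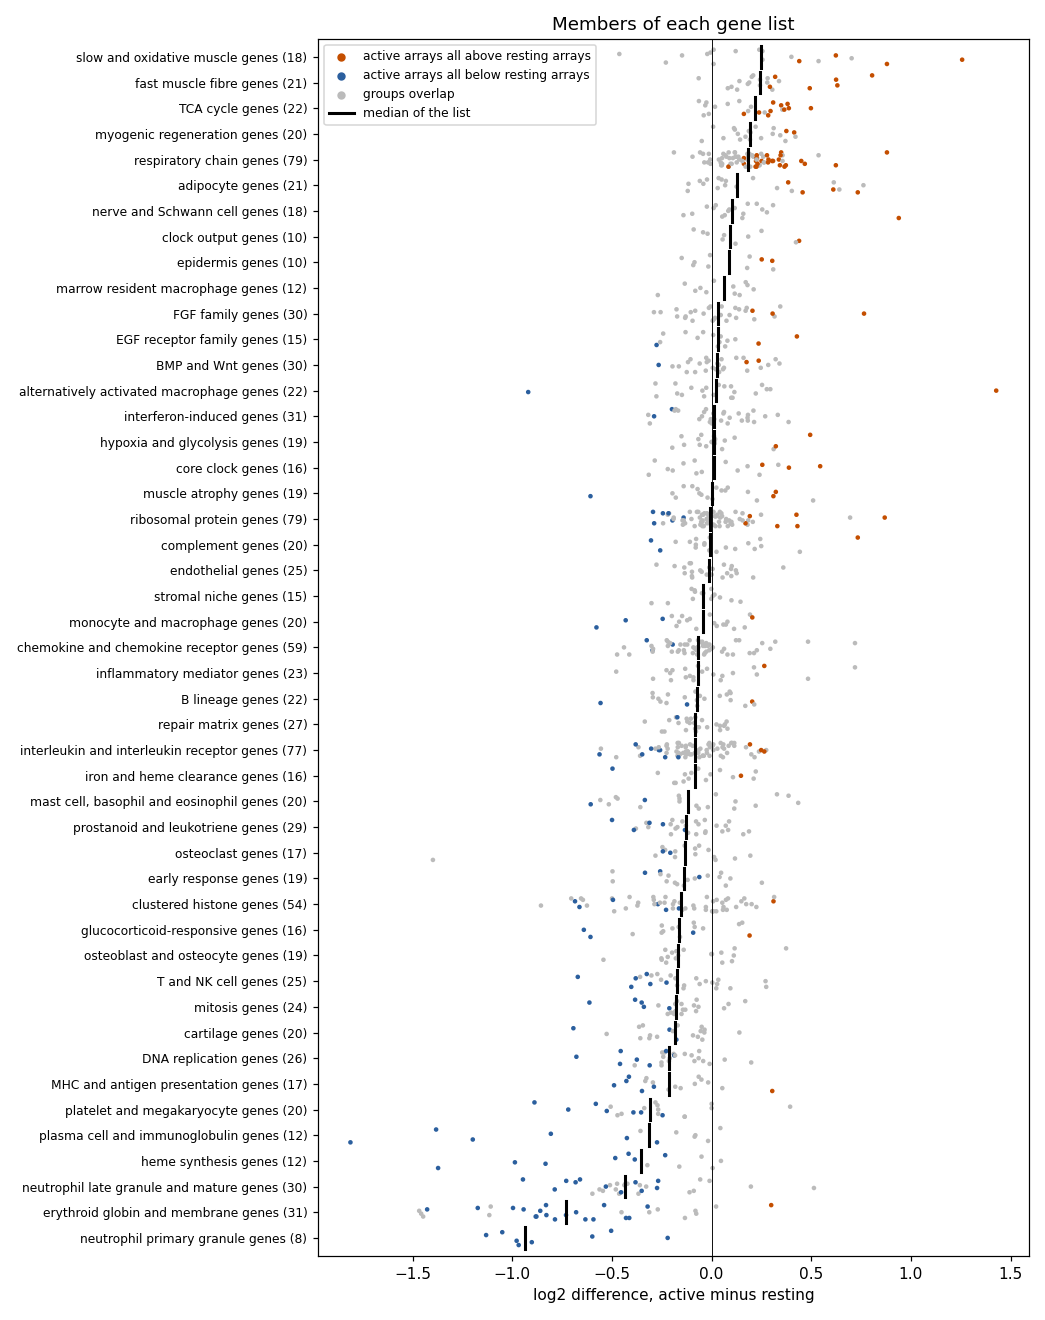
Log2 difference, active minus resting, of every member of the 47 gene lists, with 1 point per gene, the number of members in parentheses and the list median as a black bar. Blood cell lists fill the bottom of the plot, down to the primary granule list at -0.94, and muscle and mitochondrial lists the top, up to the slow and oxidative muscle list at 0.25.

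In the other direction stood skeletal muscle and mitochondrial genes. Of 21 genes of fast muscle fibres, 20 were higher in the active arrays and 6 did not overlap, all 6 of them higher, with a median of 0.24. This median was 0.15 without active replicate 3 or resting replicate 3, and 0.37 without resting replicate 2. Myh2, the myosin heavy chain of fast oxidative fibres, had 9.61, 9.36 and 9.68 in the active arrays, against 9.07, 8.64 and 8.52 in the resting arrays, a difference of 0.81 (SE 0.29, adjusted p = 0.71 from limma). Casq1, the calcium store protein of fast muscle, had 10.77, 10.51 and 10.79 in the active arrays, against 10.07, 10.15 and 9.94 in the resting arrays, a difference of 0.63. Ampd1, the AMP deaminase of muscle, and Pvalb, a calcium buffer of fast fibres, had 0.62 and 0.49. Tnnt3, the fast troponin T, had 0.29 without overlap. Myh4, the myosin of the fastest fibres, had 0.10, and Acta1, the skeletal actin, had 12.90, 12.97 and 13.21 in the active arrays, against 13.10, 13.20 and 12.98 in the resting arrays (-0.07). The groups overlapped for Myh4 and Acta1.

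Of 18 slow and oxidative muscle genes, 13 were higher and 4 did not overlap, all 4 of them higher, with a median of 0.25. It was 0.14 without resting replicate 2, 0.16 without active replicate 2 and 0.38 without resting replicate 1. Ckmt2, the creatine kinase of muscle mitochondria, had 8.41, 8.82 and 8.97 in the active arrays, against 7.65, 7.75 and 7.02 in the resting arrays. Its difference of 1.26 (SE 0.24, adjusted p = 0.33 from limma) was a 2.39-fold higher signal. Cox7a1, a subunit of complex IV made in heart and skeletal muscle, had 10.15, 10.97 and 10.80 in the active arrays, against 9.57, 10.07 and 9.64 in the resting arrays, a difference of 0.88. The lowest active array lay just above the highest resting array. Cox7a1 and Cox6a2, both without overlap, are also members of the respiratory chain list below, so the counts of these lists are not separate. Ppargc1a, a coactivator of mitochondrial genes, had 0.70 with overlapping groups, because active replicate 1 (6.72) lay below resting replicate 2 (6.80). Myh7, the slow myosin, had -0.15, and Ucp3, a mitochondrial carrier of muscle, had -0.46, both with overlap.

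Other muscle genes stood among the 20 largest higher differences. Dhrs7c, a dehydrogenase of the muscle calcium store, had 7.28, 7.49 and 7.23 in the active arrays, against 6.66, 6.66 and 6.54 in the resting arrays, a difference of 0.71 with an SE of 0.10. Lrtm1, Myoz3, Myoz2 and Rpl3l had differences of 0.92, 0.83, 0.77 and 0.87. Myoz2 and Myoz3 encode calsarcins of the Z disc, and Rpl3l encodes a ribosomal protein made in muscle in place of RPL3. Of 79 ribosomal protein genes as a whole, 37 were higher and 42 lower, with 6 non-overlapping genes in either direction and a median of -0.01. Atp1b1, a sodium pump subunit, had 9.08, 9.44 and 9.42 in the active arrays, against 8.54, 8.75 and 8.50 in the resting arrays.

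Genes of muscle regeneration were higher by 0.19 at the median, which was 0.071 without active replicate 1, 0.11 without resting replicate 2 and 0.295 without active replicate 3. Of 20, 19 were higher and 2 did not overlap, both higher. Tnnt2, the cardiac troponin T that regenerating fibres also make, had 10.66, 10.14 and 10.18 in the active arrays, against 9.89, 9.85 and 10.01 in the resting arrays. Megf10, a receptor of muscle stem cells, had 0.37, and Pax7, the stem cell transcription factor, had 0.06. Of 19 muscle atrophy genes, 10 were higher and 9 lower, with 2 non-overlapping genes higher (Sesn1 0.31 and Bnip3 0.32), 1 lower (Pdk4 -0.61) and a median of 0.00. Trim63 and Fbxo32, the ubiquitin ligases by which the atrophy program is usually read, had -0.07 and 0.02.

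Most mitochondrial genes had small positive differences. Of 79 respiratory chain genes, 70 were higher in the active arrays and 25 did not overlap, all 25 of them higher, with a median of 0.18. The mean of the list was 9.16, 9.38 and 9.27 in the active arrays, against 9.08, 9.12 and 9.04 in the resting arrays. All 3 active means lay above all 3 resting means, and active replicate 1 was the lowest of the active ones. All 36 genes of complex I, which takes electrons from NADH, were higher, 14 of them without overlap, with a median of 0.23 and a range of 0.04 to 0.47. The largest of these was Ndufa7, with 8.18, 8.48 and 8.25 in the active arrays, against 7.96, 7.93 and 7.62 in the resting arrays.

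Among the other complexes, 3 of 4 genes of complex II, 7 of 8 of complex III, 9 of 15 of complex IV and 15 of 16 of the ATP synthase were higher. In complex IV the genes of the subunits made in heart and skeletal muscle had the larger differences: Cox7a1 had 0.88, Cox6a2 0.62 and Cox8b 0.54. Their counterparts in other tissues, Cox7a2, Cox6a1 and Cox8a, had 0.10, -0.01 and -0.04. Without Cox7a1, Cox6a2 and Cox8b, 67 of 76 respiratory chain genes were higher, with the same median of 0.18. Leaving 3 genes out of so long a list can hardly move its median, so this does not show what part muscle had. Muscle markers were higher in the same arrays, and their part in the mitochondrial difference was not tested.

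Of 22 TCA cycle genes, 17 were higher and 10 did not overlap, all 10 of them higher, with a median of 0.22. Idh3a, a subunit of the NAD-dependent isocitrate dehydrogenase, had 9.07, 8.91 and 9.28 in the active arrays, against 8.63, 8.60 and 8.54 in the resting arrays, a difference of 0.50. Sucla2, a succinate-CoA ligase subunit, had 0.38 and Fh1, the fumarase, 0.30, while Cs, the citrate synthase at the head of the cycle, had -0.06. Mrpl32, a protein of the mitochondrial ribosome, had 6.65, 7.0001 and 6.81 in the active arrays, against 6.14, 5.85 and 5.53 in the resting arrays, a difference of 0.98. After this value was seen, all 76 genes of mitochondrial ribosomal proteins were counted, and 71 were higher, 23 without overlap and all 23 higher, with a median of 0.16.

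**Figure D3:**
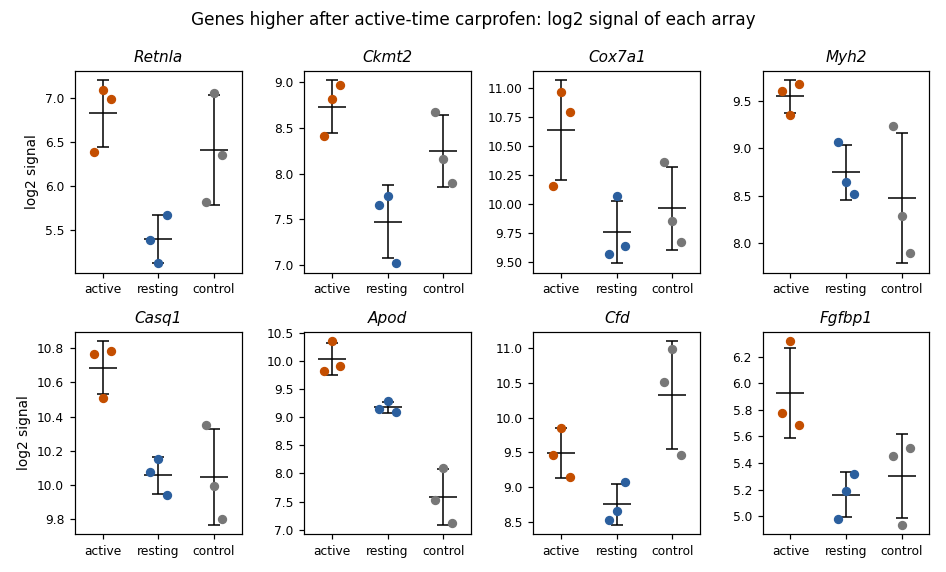
Log2 signal of 8 genes with higher values in the active group, with 1 point per array and the mean ± SD of 3 arrays per group. The active arrays lie above the resting arrays in every panel, while the control arrays lie above, between or below them depending on the gene.

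Schwann cells, fat cells and skin were examined as other tissues that can come with the sample. Of 18 nerve and Schwann cell genes, 15 were higher, with a median of 0.10, and 1 did not overlap, with the active arrays higher. Sox10, a transcription factor of Schwann cells, had 0.02. Apod, a lipid carrier found in nerve and connective tissue, had 9.82, 10.35 and 9.90 in the active arrays, against 9.14, 9.28 and 9.09 in the resting arrays, a difference of 0.85.

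Of 21 adipocyte genes, 16 were higher and 4 did not overlap, all 4 of them higher (Cfd, Thrsp, Pparg and Cidec), with a median of 0.13. Cfd, the complement factor D that fat cells secrete as adipsin, had 9.47, 9.85 and 9.14 in the active arrays, against 8.52, 8.66 and 9.08 in the resting arrays, a difference of 0.73. Pparg, the main transcription factor of fat cells, had 7.10, 6.89 and 6.98 in the active arrays, against 6.66, 6.30 and 6.65 in the resting arrays. Fabp4 and Plin1, a fatty acid carrier and a lipid droplet protein of fat cells, each had -0.12. Of 20 complement genes, 9 were higher and 11 lower, with Cfd as the 1 non-overlapping higher gene, C3 (-0.30) and Cfp (-0.26) as the 2 lower ones and a median of -0.01. Of 10 epidermis genes, 5 were higher and 5 lower, Krt5 (0.30) and Krt10 (0.25) without overlap, and the median was 0.09. Krt14, a keratin of the basal skin layer, lay at 4.96 to 5.36 in the 6 arrays, with a difference of -0.01.

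Among macrophage genes, 1 gene stood far from the rest. Retnla, which interleukin 4 and interleukin 13 induce in macrophages and which fat tissue also makes, had 6.39, 7.09 and 6.99 in the active arrays, against 5.39, 5.12 and 5.67 in the resting arrays. Its difference of 1.43 (SE 0.29, adjusted p = 0.37 from limma) was the largest positive one of the table, a 2.69-fold higher signal. The control arrays had a mean of 6.41. Against them Retnla differed by 0.42 in the active arrays (adjusted p = 0.37 from limma) and by -1.01 in the resting arrays (adjusted p = 0.032).

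The rest of the alternatively activated macrophage list did not follow Retnla. Of 22 genes, 12 were higher and 10 lower, with a median of 0.02. Chi3l3, a chitinase-like protein of macrophages and of neutrophil precursors, had 8.44, 7.44 and 8.36 in the active arrays, against 9.35, 8.85 and 8.81 in the resting arrays, a difference of -0.92, and was the only other gene without overlap. Arg1 (arginase) had -0.10, Mrc1 (the mannose receptor) 0.06 and Cd163 (the hemoglobin scavenger receptor) 0.22. Il4ra, the interleukin 4 receptor, had 9.44, 9.12 and 10.04 in the active arrays and 9.40, 10.08 and 9.97 in the resting arrays, which overlapped. Of 20 general monocyte and macrophage genes, 9 were higher and 11 lower, with a median of -0.04. In this list 1 gene did not overlap with the active arrays higher. The 3 non-overlapping lower genes were Cybb, Itgam and Lyz2, all of which neutrophils express too. The macrophage markers Csf1r, Emr1 and Cd68 had -0.18, -0.12 and 0.06. Of 12 genes of macrophages that reside in the marrow, 7 were higher and 0 did not overlap (median 0.06).

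Cytokine lists had medians near 0. Of 23 inflammatory mediator genes, 9 were higher and 14 lower, with Il1a (0.26) as the only gene without overlap and a median of -0.07. Of 59 chemokine and chemokine receptor genes, 15 were higher and 44 lower, 3 of them without overlap, with a median of -0.07. Ccl12, a monocyte-attracting chemokine, had 4.91, 6.06 and 5.28 in the active arrays, against 4.52, 4.97 and 4.60 in the resting arrays. The groups overlapped through active replicate 1, and the difference was 0.72 (SE 0.24, adjusted p = 0.68 from limma). Leaving out each array in turn gave 0.40 to 0.97. The resting values and that of active replicate 1 were dim, below the lower quartiles of their arrays. Ccl3, which attracts monocytes and neutrophils, had 6.18, 6.55 and 6.73 in the active arrays and 5.88, 5.83 and 6.30 in the resting arrays, a difference of 0.48 with overlap.

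Of 77 interleukin and interleukin receptor genes, 53 were lower, 8 of them without overlap, and 3 were higher without overlap (median -0.08). Il6ra, a receptor chain for interleukin 6, and Il1f9, an interleukin 1 family member, had -0.35 and -0.56, while Il18 and Il9 had 0.05 and -0.01. Of 31 interferon-induced genes, 18 were higher and 13 lower, with 2 lower without overlap and a median of 0.01. Cxcr4, which holds blood-forming cells in the marrow, had -0.30 with overlap. Trim12c, a member of a family of antiviral proteins, was 1.33 lower on the log2 scale, without overlap.

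**Figure D4:**
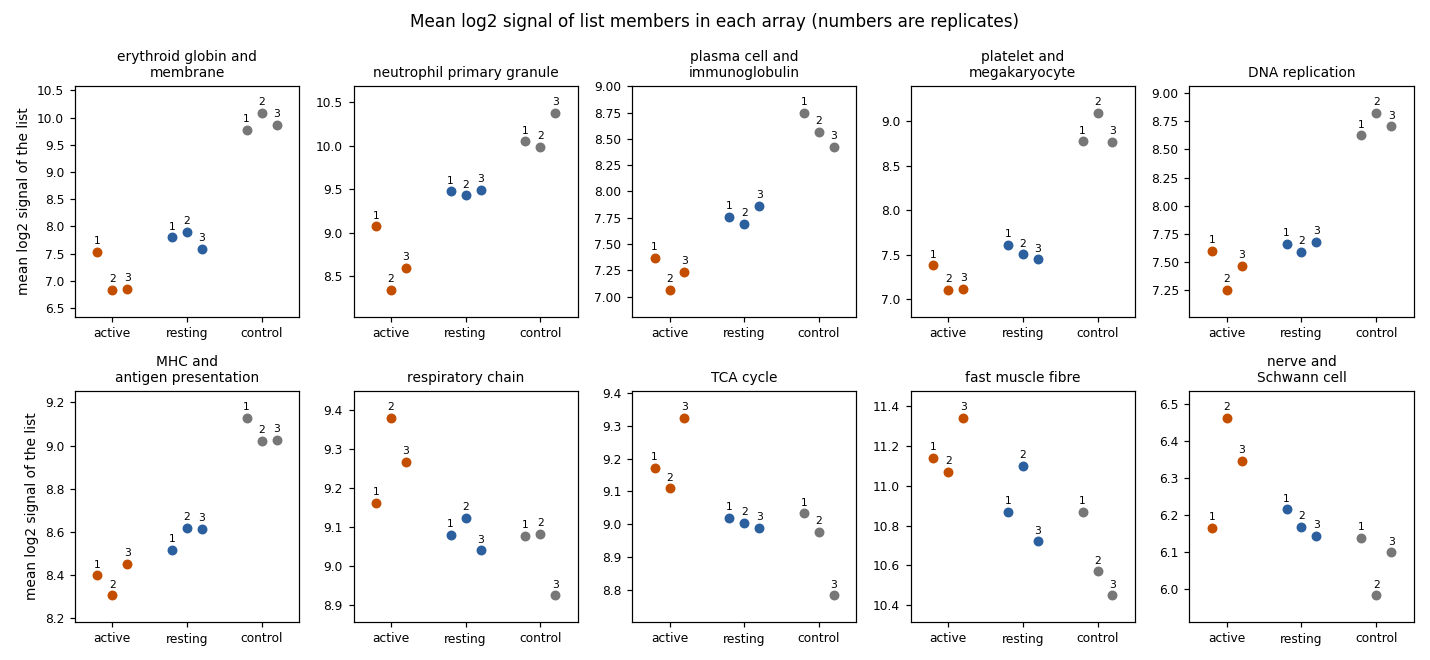
Mean log2 signal of the members of 10 gene lists in each array, with 1 point per array and the replicate number above it. Active replicate 1 is the highest active array in the erythroid, primary granule, plasma cell, platelet and DNA replication panels and the lowest in the respiratory chain and nerve panels.

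Genes of bone and connective tissue gave no common direction beyond the array spread. Of 19 osteoblast and osteocyte genes, 7 were higher and 12 lower, and 0 did not overlap. Their mean was 7.90, 8.28 and 8.40 in the active arrays, against 8.80, 7.83 and 8.23 in the resting arrays. The median of -0.17 rested on single arrays: it was 0.16 without resting replicate 1 and 0.03 without active replicate 1. Of 27 repair matrix genes, 20 were lower, 1 of them (Timp1, -0.17) without overlap, with a median of -0.08. Postn and Col3a1, matrix proteins of repair tissue, had 0.04 and -0.24. Of 15 stromal niche genes 10 were lower and of 25 endothelial genes 14 were lower, 0 without overlap in either list, with medians of -0.04 and -0.01.

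Most cartilage genes had slightly lower values in the active arrays. Of 20, 19 were lower and 3 did not overlap, all 3 lower (Lect1, Col9a1 and Col9a3), with a median of -0.19 that was -0.10 without active replicate 1. Lect1, a growth regulator of cartilage, had 5.60, 5.77 and 5.14 in the active arrays, against 5.82, 5.94 and 6.83 in the resting arrays, a difference of -0.69 that was -0.38 without resting replicate 3. Col2a1, the main collagen of cartilage, had 7.90, 7.37 and 7.34 in the active arrays and 8.42, 7.69 and 8.08 in the resting arrays, which overlapped. Sox9, the transcription factor that starts cartilage, had -0.05. Of 17 osteoclast genes, 13 were lower and 2 did not overlap, Oscar (-0.24) and Ostf1 (-0.21), with a median of -0.14. The osteoclast enzymes Ctsk (cathepsin K) and Acp5 (tartrate-resistant acid phosphatase) had -0.23 and -0.18 with overlap.

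Growth factor lists had medians near 0. Of 30 FGF family genes, 18 were higher, 3 of them without overlap, with a median of 0.03. The largest was Fgfbp1, which releases FGFs from the matrix, with 5.77, 6.32 and 5.69 in the active arrays, against 4.98, 5.19 and 5.32 in the resting arrays (0.76, SE 0.20, adjusted p = 0.53 from limma). The FGF ligand genes Fgf10 and Fgf11 had -0.26 and 0.32 with overlap. Of 30 BMP and Wnt genes, 18 were higher, with 2 non-overlapping higher, 1 lower (Wnt1, -0.27) and a median of 0.03. Lzic, which holds a domain that binds beta-catenin, had 6.07, 5.95 and 5.99 in the active arrays, against 5.88, 5.83 and 5.60 in the resting arrays. Of 15 EGF receptor family genes, 9 were higher, Egf (0.24) and Erbb3 (0.43) without overlap, while the ligand Ereg (-0.28) was lower without overlap, and the median was 0.03.

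The list that joins prostanoid genes, of the pathway on which carprofen acts, with leukotriene genes had a median difference of -0.13. Its members ranged from -0.50 to 0.19, and no median was taken for the prostanoid genes alone. The median of the joined list was -0.035 without resting replicate 1 and -0.08 without active replicate 1. Of 29 prostanoid and leukotriene genes, 22 were lower and 5 did not overlap, all 5 of them lower. Ptgs1 and Ptgs2, encoding both cyclooxygenases, each had -0.20 with overlap. Ptgir, the prostacyclin receptor, had 6.39, 6.34 and 6.66 in the active arrays, against 6.89, 6.93 and 6.75 in the resting arrays, a difference of -0.39 (SE 0.12, adjusted p = 0.60 from limma). On the leukotriene side, Lta4h, which makes leukotriene B4, had 8.90, 8.36 and 8.70 in the active arrays, against 9.37, 8.97 and 9.12 in the resting arrays, and Alox5ap, the partner of 5-lipoxygenase, had -0.31, also without overlap. Neutrophils express both of these, and neutrophil genes were lower in the same arrays (28 of the 30 late granule and mature neutrophil genes, with means of 8.65, 8.36 and 8.70 in the active arrays and 9.24, 8.84 and 8.80 in the resting arrays). Their part in this difference was not tested.

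Nr1d1, Nr1d2 and Per2 were the core clock genes whose groups did not overlap. Of 16 core clock genes, 8 were higher and 8 lower, 3 did not overlap, all 3 of them higher, and the median was 0.01. Nr1d1, a nuclear receptor that represses Arntl, had 8.48, 8.72 and 8.93 in the active arrays, against 8.44, 8.06 and 7.996 in the resting arrays, a difference of 0.54 (SE 0.16, adjusted p = 0.61 from limma). Its lowest active array lay just above its highest resting array. Its relative Nr1d2 had 8.26, 8.62 and 8.81 in the active arrays, against 8.15, 8.15 and 8.23 in the resting arrays (0.39). Per2, a repressor of ARNTL and CLOCK, had 7.37, 7.13 and 7.16 in the active arrays, against 7.002, 6.98 and 6.91 in the resting arrays (0.25, SE 0.11, adjusted p = 0.82 from limma).

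The activators Npas2 and Arntl had -0.32 and -0.29 and Cry1, a repressor, had -0.20, all with overlapping groups. Per1 and Per3 had -0.09 and 0.13. Of 10 clock output genes, 7 were higher and 1 did not overlap. That gene, Bhlhe41, a repressor that binds the same E-box as CLOCK, had 6.09, 6.21 and 6.04 in the active arrays, against 5.96, 5.46 and 5.62 in the resting arrays (0.44). Usp2, a ubiquitin protease under clock control, had 0.42 and Dbp, a classic output gene, 0.25, both with overlap. All tissue was taken at the same hour, so these are levels at 1 time of day, and no phase or amplitude can be read from them.

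The promoter of Bhlhe41 is shown because it was the clock output gene whose groups did not overlap and it holds the E-box CACGTG, in capitals, searched on both strands. It comes from RefSeq, build GRCm38.p6, chr6:145865421-145865670 on the minus strand, the 250 bases before the start.
Bhlhe41: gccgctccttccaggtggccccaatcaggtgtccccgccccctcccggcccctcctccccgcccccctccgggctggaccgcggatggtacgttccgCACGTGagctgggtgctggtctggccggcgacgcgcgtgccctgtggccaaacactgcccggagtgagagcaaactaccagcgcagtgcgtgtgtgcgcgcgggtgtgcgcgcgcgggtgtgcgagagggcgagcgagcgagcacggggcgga
Of the 26 clock and clock output genes, 20 had a promoter window, and 4 held the E-box (Bhlhe41, Cry1, Per1 and Tef), against 1854 of 27025 genes (6.86%). The D-box TTATGTAA, the site of the DBP family, was found in 1 of the 20, Per3, against 264 of the 27025 genes (0.977%). The windows of Nr1d1, Nr1d2 and Dbp did not hold the letters of either motif.

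**Figure D5:**
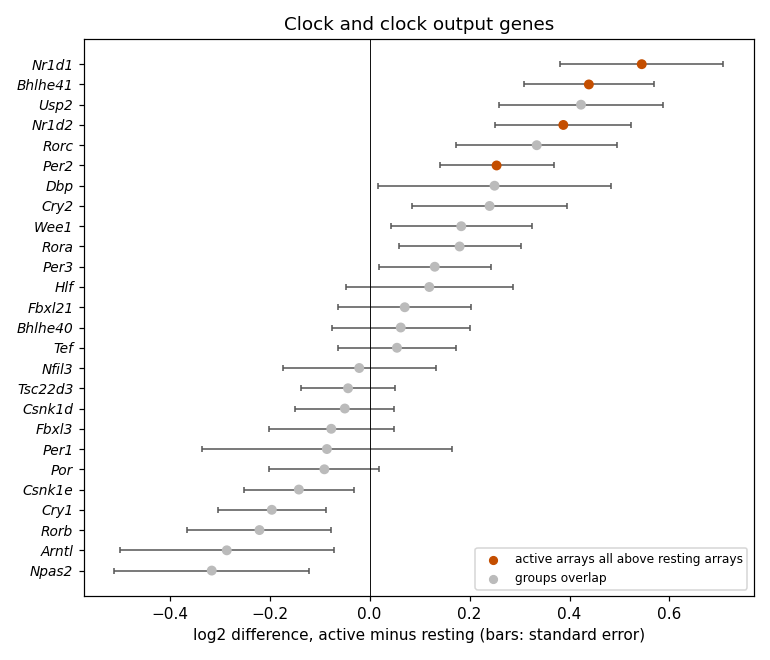
Log2 difference, active minus resting, of the core clock and clock output genes, with the standard error from limma as bars. Orange points, Nr1d1 at 0.54, Bhlhe41 at 0.44, Nr1d2 at 0.39 and Per2 at 0.25, are genes whose active arrays all lay above the resting arrays, and no gene lay wholly below.

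Stress and metabolic response lists had medians from -0.16 to 0.01. Of 16 glucocorticoid-responsive genes, 13 were lower, 3 of them without overlap and 1 (Klf9, 0.19) above without overlap, with a median of -0.16 that was -0.04 without resting replicate 2. Angptl4, an inhibitor of lipoprotein lipase, had 7.99, 8.29 and 8.23 in the active arrays, against 8.69, 8.64 and 9.10 in the resting arrays, a difference of -0.64. Pdk4, which shuts pyruvate out of the TCA cycle, had -0.61, and Fkbp5, a chaperone induced by glucocorticoids, 0.14. Of 19 early response genes, 14 were lower, 3 of them without overlap, with a median of -0.14. Fos, a transcription factor of the immediate response, had 7.49, 7.40 and 7.47 in the active arrays and 8.41, 8.06 and 7.38 in the resting arrays. Its resting replicate 3 lay with the active arrays.

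Of 19 hypoxia and glycolysis genes, 11 were higher, 2 of them without overlap, with a median of 0.01. Egln3, an oxygen sensor that degrades HIF, had 8.39, 8.31 and 8.36 in the active arrays, against 7.74, 7.84 and 7.99 in the resting arrays, a difference of 0.49. Of 16 iron and heme clearance genes, 11 were lower, with Hp (haptoglobin, -0.50) lower and Blvra (a biliverdin reductase, 0.15) higher without overlap and a median of -0.08. Hmox1, the heme oxygenase induced by free heme, had 0.21 with overlap.

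Small RNA genes were measured by few rows each. Among microRNA genes with the active arrays all lower, Mir483, inside the Igf2 gene, and Mir1941 are described. Mir483 had 9.80, 10.11 and 9.30 in the active arrays, against 10.38, 10.83 and 10.63 in the resting arrays, a difference of -0.88 (SE 0.22, adjusted p = 0.53 from limma). Mir1941 had 4.45, 4.29 and 4.09 in the active arrays, against 4.73, 4.86 and 5.27 in the resting arrays. These Mir1941 values were dim, below the lower quartile of their array in all but resting replicate 3. The mature products of Mir483 and Mir1941 follow. They are shown 5′ to 3′ from RefSeq (GRCm38.p6), with the seed, bases 2 to 8, in capitals. The array does not tell the mature arms from the precursor.
mmu-miR-483-5p: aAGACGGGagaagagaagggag
mmu-miR-483-3p: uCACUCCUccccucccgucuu
mmu-miR-1941-5p: aGGGAGAUgcugguacagaggcuu
mmu-miR-1941-3p: cAUCUUAGcaguaucucccau
No seed was shared among these 4. Of all 528 microRNA genes, 24 did not overlap with the active arrays higher and 20 with them lower, near the shares of the whole table. AF357426, a small nucleolar RNA, had 5.05, 6.42 and 4.90 in the active arrays, against 4.21, 4.23 and 4.67 in the resting arrays, with active replicate 2 well above the others.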

How the data were processed

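Total RNA from the central tibia of 9 mice was hybridized by the authors to GeneChip Mouse Gene 2.0 ST arrays, 100 ng per array. The deposited values are the authors' normalized log2 signals. Per the methods, they were normalized and GeneSpring GX was used, with the authors' analysis limited to entities flagged present. The algorithm is not given in the sources used here. Their range fits a log2 scale, which no source states. A second deposited table holds 41345 probe sets, which include every one of the 24367 gene-named rows unaltered. It numbers the active and resting replicates differently, and numbers here are those of the gene-named table. Arrays give no depth, and 3 arrays per group limit the precision.

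In R 4.3.3, limma 3.58.1 (lmFit and eBayes) fitted all 9 arrays at once, without pairing, and the active minus resting contrast was adjusted by Benjamini-Hochberg across the table. The methods' thresholds (1.5-fold with a raw p below 0.05) and full separation of the arrays were counted as well. The steps were tested on simulated data. Summaries and figures used Python 3.11.15, pandas 2.3.3 and matplotlib 3.10.9. The genes of 47 lists (1216 symbols, 1195 with a row) are described by counts and medians. These entries stand for 1135 different genes, since some genes are in several lists, so the lists are not independent. Named genes are those the paper names, the 20 largest differences in each direction among non-overlapping genes, the 4 largest predicted or small RNA genes, the lowest p-values of each list (up to 4 genes), and cell type markers. Any further member was picked with its value in view. The members and lists were chosen with earlier results of these data known. The alternatives were the methods' t-test, the 6 arrays alone, removal of the dimmest 40% of rows, median centring, quantile normalization, array weights, an intensity trend, a replicate block, averaged rows, the probe set table, a 2-fold threshold and leaving out each array. Promoter and microRNA sequences came from RefSeq tables, and no gene ontology terms were used. Some genes that these rules name are not reported here.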

Additional observations from a re-analysis of the deposited data

How the results depend on the processing

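The number of rows at each threshold depended on single arrays. Leaving out 1 array at a time gave 0 to 35 rows at an adjusted p under 0.05 (35 without active replicate 1, 1 without resting replicate 2), 927 to 2117 at an unadjusted p under 0.05 (927 without resting replicate 3), 64 to 209 higher (209 without active replicate 1) and 106 to 401 lower (401 without resting replicate 1, 303 without active replicate 1) at 1.5-fold as well, and 1258 to 3166 rows higher and 1163 to 2801 lower without overlap, where fewer arrays separate more easily. The methods' t-test gave 39 higher and 69 lower rows at 1.5-fold, all probe sets 249 and 304 (2025 and 1901 without overlap), and the 2-fold threshold 7 and 43. Without the 40% of rows with the lowest mean, and with array weights, 1 row passed the adjusted p, Ighm in both. Deviations of same-numbered active and resting arrays from their group means had correlations of -0.25, -0.03 and -0.13. Under the probe set table's numbers the correlations were -0.05, 0.23 and 0.16. With 3 arrays per group these values cannot show whether either numbering pairs the arrays. The replicate block gave 0 rows at an adjusted p under 0.05, 1439 at an unadjusted p under 0.05 and 90 higher and 156 lower at 1.5-fold, and a block from the probe set table's numbers, added after the data were seen, gave 0, 1577, 89 and 160. The filter moved the list medians of mast cell, basophil and eosinophil genes to -0.36, clustered histones to -0.29, adipocyte genes to 0.27, epidermis genes to 0.25 and EGF receptor family genes to -0.10. Leaving out 1 array gave ranges of -1.14 to -0.63 (neutrophil primary granule genes), -0.21 to -0.058 (T and NK cell genes), -0.27 to -0.14 (MHC and antigen presentation genes), -0.031 to 0.083 (complement genes), 0.011 to 0.11 (BMP and Wnt genes), 0.026 to 0.12 (epidermis genes), -0.19 to -0.035 (prostanoid and leukotriene genes), -0.23 to -0.039 (glucocorticoid-responsive genes), -0.034 to 0.046 (EGF receptor family genes), -0.099 to 0.01 (inflammatory mediator genes). The inflammatory mediator median turned to 0.01 without resting replicate 3. Among single genes, Bglap (-0.021 to 0.20), Cd163 (-0.011 to 0.34), Cd68 (-0.0301 to 0.15), Cd79a (-0.75 to 0.065), Col1a1 (-0.30 to 0.13), Dmp1 (-0.47 to 0.057), Ibsp (-0.46 to 0.081), Il18 (-0.096 to 0.13), Il9 (-0.081 to 0.079), Krt14 (-0.12 to 0.081), Mcam (-0.25 to 0.0404), Mepe (-0.079 to 0.29), Phex (-0.60 to 0.19), Postn (-0.14 to 0.14), Slc40a1 (-0.47 to 0.0079) and Sox9 (-0.17 to 0.082) changed sign when 1 array was left out. Array weights turned Col1a1 to 0.0446, Krt14 to 0.0716, Postn to -0.022, Acta1 to 0.000786 and Il18 to -0.0099, quantile normalization turned Krt14 to 0.0217 and Il9 to 0.0175, and averaging the rows of a symbol turned Fgf10 to 0.011. The cause of these shifts was not tested. List medians were recomputed under the filter, quantile normalization, median centring, averaged rows, the replicate block and each left-out array, and not under the other alternatives. The sign turned for 7, 8 and 7 lists without active replicates 1, 2 and 3, for 7, 2 and 7 without resting replicates 1, 2 and 3, for 3 each under the filter, quantile normalization and averaged rows, and for 0 under median centring and the block. The larger turns were osteoblast genes to 0.16 and endothelial genes to 0.10 without resting replicate 1, interferon-induced genes to -0.12 without active replicate 3, and monocyte and macrophage genes to 0.096, B lineage genes to 0.034 and repair matrix genes to 0.032 without active replicate 2. Other medians that 1 array moved by over 1.5 times include those of early response genes (-0.066 without active replicate 2, -0.079 without resting replicate 1, -0.22 without resting replicate 3), osteoclast genes (-0.064 without active replicate 2, -0.24 without active replicate 3), mast cell, basophil and eosinophil genes (-0.069 without active replicate 2), glucocorticoid-responsive genes (-0.092 without active replicate 2), clustered histone genes (-0.10 without resting replicate 2), nerve genes (0.065 without resting replicate 2) and adipocyte genes (0.205 without active replicate 3). Under these alternatives the medians of the erythroid, heme, neutrophil, plasma cell, platelet, muscle fibre, respiratory chain and TCA cycle lists kept their sign.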
